A study of Rattus norvegicus with 8 samples.

Results

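Of the 673 non-coding RefSeq transcripts (identifiers starting with NR_) among the 18321 transcripts that the deposited files list, 138 had at least 10 estimated counts in all 4 somatic libraries or in all 4 axonal libraries. These 138 are described here. They were chosen by their level alone, without regard to the hairpin. The somatic libraries admitted 131 of them and the axonal libraries 55. Both compartments admitted 48, the somatic libraries alone 83 and the axonal libraries alone 7. The cells were dorsal root ganglion neurons, the sensory neurons of the body, taken from rats at embryonic day 15 and kept for 7 days in microfluidic chambers, devices with a compartment for cell bodies and another that axons alone are meant to reach. A lentivirus that carries a short hairpin RNA had been added on the day of plating. The 4 groups, each of 2 libraries, were axonal compartment with shPum2 (a hairpin against the RNA-binding protein Pum2), axonal compartment with shControl (a control hairpin), somatic compartment with shPum2 and somatic compartment with shControl. Every group thus carried a lentivirus and a hairpin. The labels give the somatic source as cell bodies together with axons. The axonal libraries were made from ultra-low input and the somatic libraries with a standard kit, so a difference of compartment cannot be told apart from one of kit. The labels do not state that replicates came from separate cultures, so p-values measure only the spread between these libraries, which may be technical.

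Non-coding RNAs act as RNA. Ribosomal RNAs (rRNAs) form the ribosome, and the signal recognition particle RNA guides ribosomes that make secreted or membrane proteins to the endoplasmic reticulum. Bc1 is a small rodent RNA made by RNA polymerase III, known from neurons, where it is carried into dendrites and represses translation. Many long non-coding RNAs (lncRNAs), among them Meg3, Miat and Xist, are known to stay largely in the nucleus, while others leave it. A microRNA (miRNA) is cut from a hairpin-shaped precursor, and the precursor from a longer primary transcript in the nucleus. The mature miRNA then pairs with target mRNAs through its seed, bases 2 to 8.

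By the RefSeq names of assembly GRCr8, the 138 transcripts comprised 67 lncRNAs, 16 miRNA precursors, 30 non-coding transcripts of 24 protein-coding genes, 5 rRNA records, 3 small cytoplasmic and nuclear RNAs (Rn7sl1, Rpph1 and Bc1), 9 transcribed pseudogenes and 8 records with no symbol. Of the small nuclear and cytoplasmic RNAs looked for by name, 4 were in the files. Rn7sl1, Rpph1 and Bc1 met the rule and Terc did not. All 5 rRNA records of the files met it, as did 67 of 128 lncRNA records, against 16 of 456 miRNA precursors. Of the other 440 precursors, 289 had 0 counts in every library. The 138 transcripts were 67 to 12659 bases long, with a median of 1383. None of the 3 snoRNA and 2 scaRNA records in the files met the rule.

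RefSeq holds a sequence for 15 of the 16 miRNA precursors, with 25 mature miRNAs and 24 distinct seeds. Shown here are those whose levels the results below turn on, with the seed in capitals. Mir22 was the only precursor admitted by both compartments, and its mature forms lie at chr10:60805349-60805370 and chr10:60805387-60805408 on the plus strand of GRCr8.
miR-22-5p: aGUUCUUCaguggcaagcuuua
miR-22-3p: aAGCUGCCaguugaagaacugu
Mir770, Mir1188 and Mir410 lie on the plus strand of chromosome 6, on the same strand as the lncRNA Meg3. The forms of Mir770 are at chr6:134298094-134298115 and chr6:134298129-134298145.
miR-770-5p: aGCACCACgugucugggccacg
miR-770-3p: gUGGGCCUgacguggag
On chromosome 17, Mir23b and Mir27b lie 142 bases apart on the minus strand. Mir3074 lies on the plus strand opposite Mir24-1, a precursor that did not meet the rule, so that reads of these precursors cannot be assigned to a strand where the kit does not mark it (the strand setting is not given in the sources used here). miR-3074 is at chr17:1818712-1818733, miR-27b-3p at chr17:1819163-1819183 and miR-23b-3p at chr17:1819405-1819425.
miR-3074: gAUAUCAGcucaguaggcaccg
miR-27b-3p: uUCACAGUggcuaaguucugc
miR-23b-3p: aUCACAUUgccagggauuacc
Mir138-1 on chromosome 8 (plus strand) and Mir138-2 on chromosome 19 (minus strand) give an identical mature form, the only seed shared among the 25. It is at chr8:131178456-131178478 and chr19:10680184-10680206.
miR-138-5p: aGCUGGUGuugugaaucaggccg

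RefSeq promoter sequences, from 250 bases before to 50 bases after the start site, were found for 85 of the 138. Printed as examples of a transcript high in axonal and one high in somatic libraries are those of Bc1, with the match to the A box of tRNA genes, an internal promoter element of RNA polymerase III, in capitals, and of Meg3, with TGACGTCA (the cAMP response element) and TATAAA in capitals. These motifs were chosen after the sequences had been read and were searched on both strands.
Bc1, chr1:209502647-209502946, plus strand: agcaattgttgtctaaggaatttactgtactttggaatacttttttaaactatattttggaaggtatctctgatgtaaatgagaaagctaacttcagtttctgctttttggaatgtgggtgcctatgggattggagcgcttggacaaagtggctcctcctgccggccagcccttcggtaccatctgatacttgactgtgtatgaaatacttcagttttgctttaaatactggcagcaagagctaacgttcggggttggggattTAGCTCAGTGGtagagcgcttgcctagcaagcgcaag
Meg3, chr6:134273806-134274105, plus strand: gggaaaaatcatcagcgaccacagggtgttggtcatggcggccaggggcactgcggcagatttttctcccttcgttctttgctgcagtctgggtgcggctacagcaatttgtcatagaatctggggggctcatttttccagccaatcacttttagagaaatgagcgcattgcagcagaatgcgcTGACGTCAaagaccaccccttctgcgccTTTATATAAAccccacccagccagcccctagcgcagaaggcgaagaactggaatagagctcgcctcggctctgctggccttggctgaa
In Bc1 the A box match lay inside the transcribed part, starting 14 bases after the start site. A match occurred in 1.86% of 33469 promoters of the same length. In Meg3 TGACGTCA began 66 bases and TATAAA 34 bases before the start site. The promoter of Gas5, an lncRNA with higher CPM in axonal libraries, also held TGACGTCA, beginning 57 bases before its start site. The capitals of Meg3 also hold TTTATA, the same letters read on the minus strand, which overlap it. Of the 33469 promoters, 1.83% held TGACGTCA and 14.2% held TATAAA. Of the 91 promoters that the table holds for these transcripts' genes, 3 held the A box match, 3 held TGACGTCA and 11 held TATAAA. These matches describe letters in a window and were not tested against the levels below.

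Libraries held 11641980 to 16131627 estimated counts in the axonal compartment and 16725902 to 25821800 in the somatic compartment, so 10 counts correspond to between 0.387 and 0.859 counts per 1000000 of the library total (CPM, not divided by length). The targeted transcript of Pum2 was at 38.2 and 36.5 CPM in somatic shPum2, against 164 and 159.5 CPM in somatic shControl libraries, a log2 change of -2.13 ± 0.07 (SE; adjusted p = 0.0314, edgeR quasi-likelihood test with Benjamini-Hochberg adjustment, as for every adjusted p below unless another tool is named). Leaving out 1 somatic library moved this adjusted p above 0.05 for 3 of the 4 libraries, with the log2 change between -2.13 and -2.12. In axonal libraries it was at 1.46 and 7.07 CPM with shPum2, against 3.25 and 0.443 CPM with shControl, so the hairpin could not be checked there. Of 10 sensory neuron markers, 9 were found, with a summed level of 3009 to 5801 CPM in axonal and 17464 to 20776 CPM in somatic libraries. The 8 macrophage and blood markers summed to 225 to 3582 CPM in axonal libraries, led by Lyz2, against 30.1 to 124 CPM in somatic libraries. The 8 fibroblast markers summed to 69.0 to 724 CPM in axonal and 1625 to 8515 CPM in somatic libraries. The 8 Schwann and satellite glia markers summed to 25.3 to 89.3 CPM in axonal and 21.7 to 49.9 CPM in somatic libraries. These ranges overlap, and 4 of the 8 were at 0 in at least 1 axonal library. The part of these other cells in the differences between compartments was not tested. In such bulk samples, fewer cells of a type and less RNA per cell cannot be told apart.

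The 138 transcripts together took 3.28% and 4.01% of the counts of the axonal shPum2 libraries and 4.17% and 8.57% of those of the axonal shControl libraries. In the somatic compartment they took 0.742% and 0.797% with shPum2 and 0.774% and 0.687% with shControl. The axonal shares thus lay above every somatic share, with a single library, axonal shControl replicate 2, far above the other axonal libraries. Most of each axonal share was rRNA, at 2.50% and 3.16% with shPum2 and 3.04% and 7.67% with shControl. Without the 5 rRNA records, 0.780% and 0.848% remained in axonal shPum2 and 1.13% and 0.895% in axonal shControl libraries, against 0.508% and 0.473% in somatic shPum2 and 0.523% and 0.493% in somatic shControl libraries. No test was made of these shares, since level chose the transcripts. In somatic libraries the share of TPM, a length-scaled unit, was higher than that of counts, at a mean of 1.38% with shPum2 and 1.36% with shControl, against 0.769% and 0.731% of the counts. In axonal libraries rRNA was the main part by counts and not by TPM. With shPum2, the axonal mean was 12991 TPM for Bc1, against 3027 for Rn28s and 3540 for Rn18s.

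**Figure D1:**
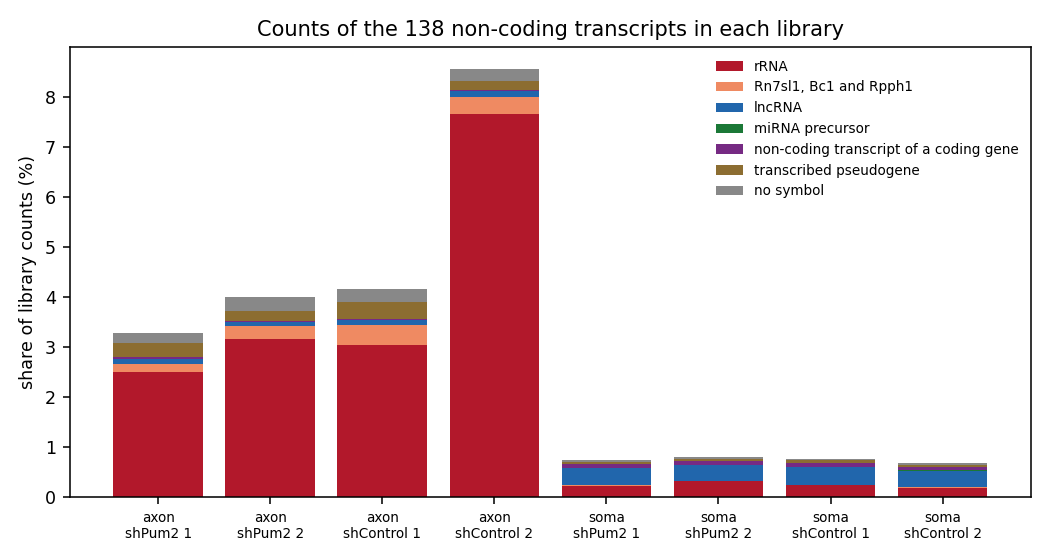
Stacked bars give the share of all estimated counts of a library (%, vertical axis) taken by each class of the 138 non-coding transcripts, with axonal libraries on the left and somatic libraries on the right. The axonal bars reach 3.28% to 8.57% and the somatic bars 0.687% to 0.797%, and rRNA makes up the main part of every axonal bar.

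Ribosomal RNA was higher in axonal than in somatic libraries. Rn28s, the RNA of the large subunit, had 16307 and 22030.3 CPM in axonal shPum2, 19821 and 53959 in axonal shControl, 1320.5 and 1913 in somatic shPum2 and 1481 and 1111 CPM in somatic shControl libraries. Rn18s, the RNA of the small subunit, had 7546 and 8927 CPM in axonal shPum2, 9445 and 21729.5 in axonal shControl, 844 and 1191 in somatic shPum2 and 872 and 671 CPM in somatic shControl libraries. Both were highest in axonal shControl replicate 2, and no axonal library overlapped a somatic one. Rn45s, the precursor from which both are cut, had 1123 and 631 CPM in axonal shPum2, 1086 and 967 in axonal shControl, 159.7 and 131 in somatic shPum2 and 152 and 151 CPM in somatic shControl libraries. The precursor record contains the mature sequences, so reads of the 3 records were divided by estimate and their single levels are uncertain. Rn5s, the RNA that RNA polymerase III makes, was admitted by the axonal libraries alone, with 15.5 and 10.5 CPM in axonal shPum2 and 12.9 and 16.6 in axonal shControl, against 0.423 and 0.387 CPM in somatic shPum2 and 0.419 and 0.431 in somatic shControl libraries. Rn5-8s, at 12.8 and 5.65 CPM in axonal shPum2, 22.6 and 57.0 in axonal shControl, 8.58 and 6.55 in somatic shPum2 and 10.3 and 4.56 CPM in somatic shControl libraries, overlapped between compartments. How rRNA was removed or avoided in either kit is not given in the sources used here.

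Of the small RNAs, Rn7sl1, the RNA of the signal recognition particle, had 1035 and 1589 CPM in axonal shPum2, 2034 and 1867 in axonal shControl, 6.02 and 4.22 in somatic shPum2 and 6.28 and 3.54 CPM in somatic shControl libraries. The axonal mean was 325 times the somatic mean. Bc1 had 639 and 1026 CPM in axonal shPum2, 1990.3 and 1441 in axonal shControl, 10.6 and 15.9 in somatic shPum2 and 16.5 and 14.8 CPM in somatic shControl libraries, a ratio of means of 88.2. For both, every axonal library lay above every somatic library. Rpph1, the RNA of ribonuclease P, which trims tRNA precursors, was admitted by the axonal libraries alone, with 4.38 and 1.30 CPM in axonal shPum2 and 9.84 and 8.13 in axonal shControl, against 0.0941 and 0.116 CPM in somatic shPum2 and 0.299 and 0.0863 in somatic shControl libraries, where it rested on 2 to 5 counts per library. Per length, Bc1 was the highest of the 138 in axonal libraries, at a mean of 12991 TPM with shPum2 and 25372 TPM with shControl, although TPM of so short a transcript depends strongly on its estimated effective length. Rn7sl1 and Bc1 have near-identical copies and derived repeats elsewhere in the genome, so their counts are uncertain.

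**Figure D2:**
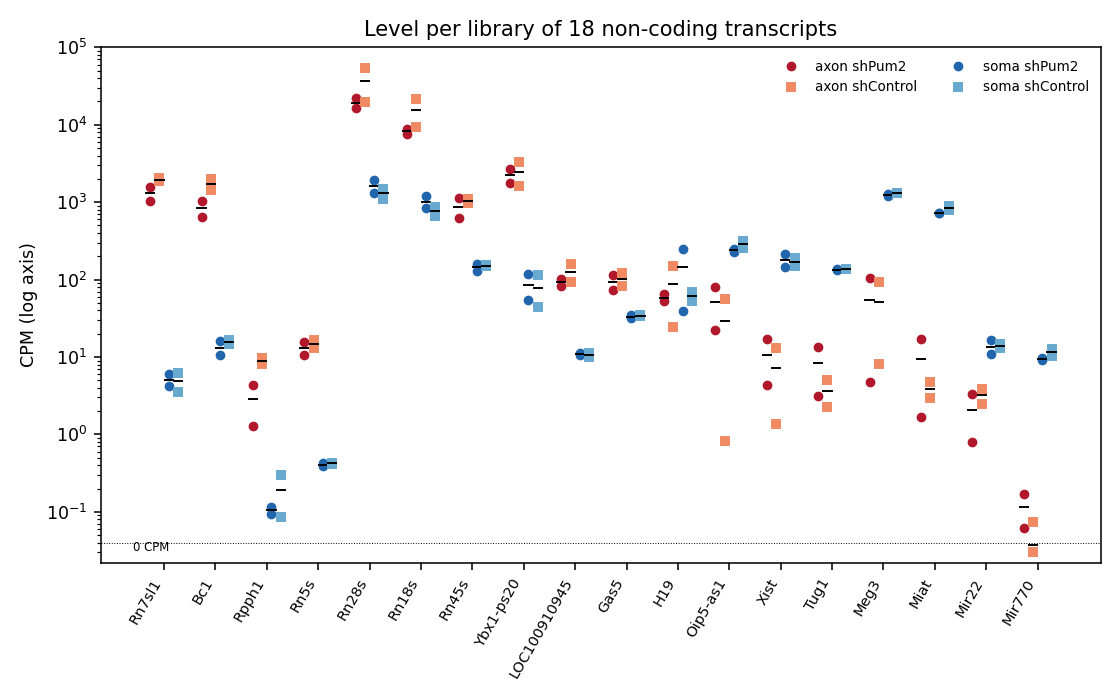
Each marker is the CPM of 1 library (log vertical axis) for 18 of the transcripts, with axonal shPum2 and shControl left of somatic shPum2 and shControl; black lines are means of 2 libraries and markers under the dotted line are at 0 CPM. From Rn7sl1 to Gas5 every axonal library lies above every somatic library, and from Xist to Mir770 every somatic library lies above every axonal library.

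The test between compartments covers only the 48 transcripts with at least 10 counts in all 8 libraries. The others were admitted through 1 compartment, so their difference is described without a test. With shPum2, 18 of the 48 were called higher and 1 lower in axonal libraries. Among all 4630 transcripts with at least 10 counts in all 8 libraries, 21.2% were called higher and 3.17% lower. With shControl, 23 were called higher and 2 lower, against 23.5% higher and 5.46% lower among the 4630. Of the calls, 18 were shared between hairpins, which is 94.7% of those with shPum2 and 72.0% of those with shControl. Both comparisons came from the same fit of all 8 libraries, with a single spread per transcript, so shared calls do not replicate each other. No such share is given for the 4630 transcripts, so the overlap cannot be read as a trait of the 48. The log2 change, on the scale of TMM-normalised counts, was 9.59 ± 0.69 for Rn7sl1 with shPum2 (SE; adjusted p = 0.00527) and 10.19 ± 0.71 with shControl (adjusted p = 0.00418). Bc1 rose by 7.55 ± 0.66 with shPum2 (adjusted p = 0.00550) and by 8.33 ± 0.69 with shControl (adjusted p = 0.00424). The change of Rn45s was 4.03 ± 0.30 with shPum2 and 4.31 ± 0.31 with shControl, that of Rn18s 4.55 ± 0.55 and 5.87 ± 0.59, and that of Rn28s 5.12 ± 0.65 and 6.37 ± 0.69, all called. Rn5-8s was called with shControl (adjusted p = 0.0277) and not with shPum2 (adjusted p = 0.222), and the difference between them was not called (adjusted p = 0.595).

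These folds depend on the scaling. The median log2 change over all 12959 transcripts tested was -0.70 with shPum2 and -0.82 with shControl after TMM scaling, and -2.05 and -2.38 when library totals alone were used. With library totals, 9 of the 48 were called higher and 3 lower with shPum2, and 10 higher and 4 lower with shControl; 7 and 8 of the 48 changed direction. Among the 4630 transcripts, library totals gave 11.1% higher and 13.1% lower with shPum2, and 12.1% higher and 18.5% lower with shControl. The calls also needed both somatic libraries of a hairpin: leaving out either somatic shPum2 library, or either somatic shControl library, left 0 called in the comparison of that hairpin, by edgeR, for the 48 and for all transcripts tested, while 3321 and 3497 of all transcripts with shPum2, and 3605 and 3671 with shControl, had an unadjusted p under 0.05. By levels alone, all 4 axonal CPM values lay above all 4 somatic ones for 21 of the 48 and below for 10, where 19.5% of the 4630 transcripts lay above and 45.6% below.

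**Figure D3:**
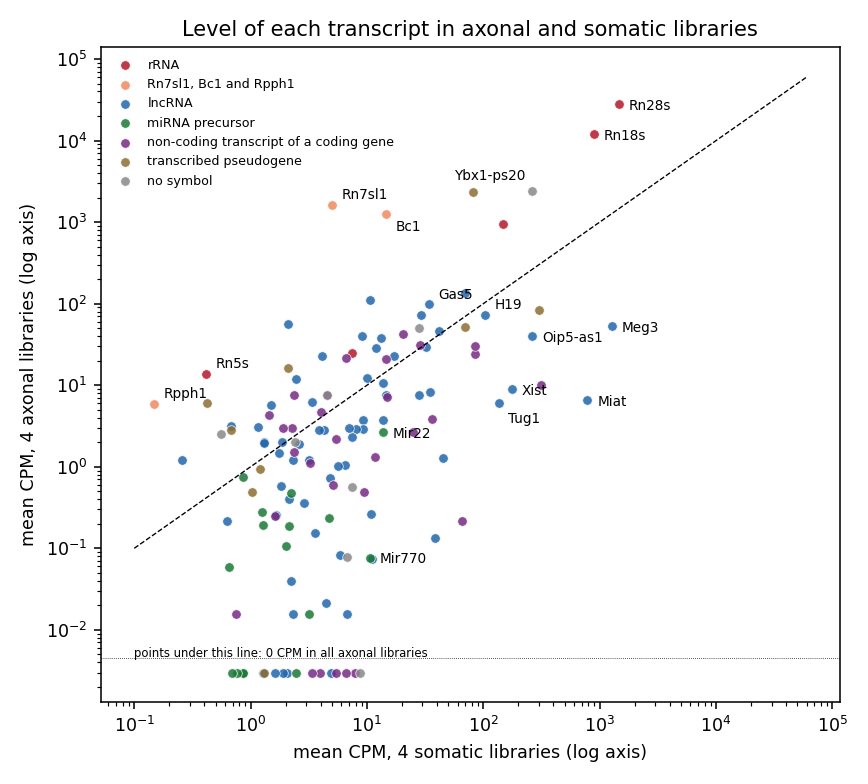
Each point is 1 of the 138 transcripts, by its mean CPM over the 4 somatic libraries (horizontal) and the 4 axonal libraries (vertical), both on log axes, coloured by class. rRNA, Rn7sl1, Bc1 and Rpph1 lie above the dashed line of equal level, while Meg3, Miat, Xist and Tug1 and the miRNA precursors lie below it. The 15 transcripts with 0 counts in all axonal libraries lie under the dotted line, as do the records of the gene Flot2, whose axonal estimates are barely above 0.

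Several lncRNAs that are abundant in somatic libraries were low in axonal ones. Miat, known as a nuclear lncRNA, had 16.9 and 1.68 CPM in axonal shPum2, 2.93 and 4.79 in axonal shControl, 726 and 726 in somatic shPum2 and 888 and 802 CPM in somatic shControl libraries. It fell in axonal libraries by a log2 change of -5.05 ± 0.92 with shPum2 (SE; adjusted p = 0.0202) and -6.23 ± 0.98 with shControl (adjusted p = 0.0123), and was the only one of the 48 called lower with both hairpins. Tug1, a regulatory lncRNA, had 3.18 and 13.6 CPM in axonal shPum2, 5.05 and 2.29 in axonal shControl, 136 and 133 in somatic shPum2 and 138 and 137 CPM in somatic shControl libraries. Its log2 change was -2.29 ± 1.0 with shPum2 (adjusted p = 0.152) and -3.66 ± 1.06 with shControl (adjusted p = 0.0456), and the call with shControl was lost under 7 alternatives, among them other size factors (adjusted p = 0.0689). Meg3, an imprinted lncRNA, had 104 and 4.71 CPM in axonal shPum2, 8.21 and 94.0 in axonal shControl, 1212 and 1268 in somatic shPum2 and 1303 and 1318 CPM in somatic shControl libraries. Every somatic value of Meg3 was more than 10 times the highest axonal one, but the axonal replicates of either hairpin differed so much that its change was not called, at -3.31 ± 1.43 with shPum2 (adjusted p = 0.149) and -3.17 ± 1.42 with shControl (adjusted p = 0.144).

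Xist, the RNA that silences an X chromosome in female cells, had 17.1 and 4.36 CPM in axonal shPum2, 13.0 and 1.35 in axonal shControl, 216 and 146 in somatic shPum2 and 189 and 152 CPM in somatic shControl libraries, and was not called with either hairpin (adjusted p = 0.130 and 0.0960). Oip5-as1, a cytoplasmic lncRNA also known as Cyrano, had 79.9 and 22.6 CPM in axonal shPum2, 57.0 and 0.813 in axonal shControl, 250.4 and 228 in somatic shPum2 and 316 and 254 CPM in somatic shControl libraries. The log2 change (± SE) of Oip5-as1 was -0.89 ± 1.46 with shPum2 (adjusted p = 0.727) and -1.71 ± 1.49 with shControl (adjusted p = 0.431), not called. For both Xist and Oip5-as1, all somatic values were above all axonal ones, and axonal shControl replicate 2 held the lowest value. LOC100911627, for which no role is annotated here, had 36.3 and 40.1 CPM in somatic shPum2 and 38.0 and 39.1 in somatic shControl libraries, with 0 to 3 counts in each axonal library. Tincr had 0 and 0.0620 CPM in axonal shPum2 and 0.0856 and 0.148 in axonal shControl, against 11.4 and 10.6 CPM in somatic shPum2 and 11.1 and 11.5 in somatic shControl libraries. Of the 83 transcripts admitted by the somatic libraries alone, 57 had every somatic CPM above every axonal one, as had 67.8% of all transcripts that met the same minimum in somatic and not in axonal libraries. Of these 83, 69 were at 0 in at least 1 axonal library and 15 in all 4, among them the lncRNAs Atad3aos, RGD1563049, Hoxaas3, Sert1 and Aptr.

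Of the hosts of small RNAs on the role list, 3 met the rule, Gas5, Snhg4 and Ftx. Snhg4, a host of small nucleolar RNAs, had 2.49 and 0 CPM in axonal shPum2, 2.40 and 0 in axonal shControl, 2.78 and 2.36 in somatic shPum2 and 1.79 and 2.24 CPM in somatic shControl libraries, so it was at 0 in replicate 2 of either axonal group and within the somatic range in replicate 1. Ftx, an X-linked lncRNA that neighbours Xist and hosts miRNAs, had 0.344 and 0 CPM in axonal shPum2, 0 and 3.69 in axonal shControl, 5.32 and 5.96 in somatic shPum2 and 5.74 and 5.57 CPM in somatic shControl libraries. Its somatic values lay within 1 CPM of each other and above every axonal one.

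Other lncRNAs were higher in axonal libraries. Of the 27 lncRNAs tested, 9 were called higher and 1 lower with shPum2, and 12 higher and 2 lower with shControl, beside the 21.2% and 3.17%, and the 23.5% and 5.46%, of the 4630 transcripts given above. Gas5, a host of small nucleolar RNAs whose own RNA starts with the same 5′ motif as ribosomal protein mRNAs, had 73.5 and 114 CPM in axonal shPum2, 82.8 and 121 in axonal shControl, 34.6 and 32.1 in somatic shPum2 and 33.7 and 34.8 CPM in somatic shControl libraries. Its log2 change was 3.07 ± 0.60 with shPum2 (SE; adjusted p = 0.0229) and 3.11 ± 0.60 with shControl (adjusted p = 0.0216), and with library totals it was 1.49 and 1.57 and was no longer called (adjusted p = 0.0756 and 0.0575). LOC100910945 had 82.2 and 102 CPM in axonal shPum2, 94.3 and 159.9 in axonal shControl, 11.1 and 10.5 in somatic shPum2 and 9.99 and 11.2 CPM in somatic shControl libraries, with somatic values that spanned less than 2 CPM. Lnc134 was called through both of its records. The shorter, NR_126578, had 54.3 and 42.4 CPM in axonal shPum2, 79.6 and 50.6 in axonal shControl, 1.15 and 2.44 in somatic shPum2 and 2.34 and 2.51 CPM in somatic shControl libraries, and the longer, NR_126577, had 40.3 and 29.5 CPM in axonal shPum2, 64.3 and 25.7 in axonal shControl, 9.04 and 8.74 in somatic shPum2 and 10.1 and 8.31 CPM in somatic shControl libraries. By estimated counts, the shorter record thus held more than the longer in axonal libraries and less in somatic ones. How reads were divided between both records was not tested, so their single levels are uncertain. LOC102549726, LOC100911177, 2810025M15Rikl, LOC100909539 and LOC100910237 were also called higher with both hairpins, with axonal over somatic mean CPM between 1.98 and 5.50.

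H19, an imprinted lncRNA of embryonic tissues, mesenchyme among them, had 52.1 and 65.0 CPM in axonal shPum2, 24.6 and 149.7 in axonal shControl, 247 and 39.7 in somatic shPum2 and 52.8 and 70.1 CPM in somatic shControl libraries. The somatic shPum2 replicates differed more from each other than either shControl replicate differed from the other, and replicate 1 was the highest of the 4 somatic libraries. That library also had the highest sum of the 8 fibroblast markers, 8515 CPM, against 1625 CPM in the other somatic shPum2 library and 3270 and 1649 CPM in the somatic shControl libraries. The part of these cells in the H19 level was not tested. H19 was not called in either comparison between compartments (adjusted p = 0.883 with shPum2 and 0.219 with shControl), and its log2 change with shPum2, 0.30, changed sign under library totals, at -1.29.

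All miRNA precursors but Mir22 were admitted through the somatic libraries alone. Reads of these records, 67 to 120 bases long, come from precursors or longer primary transcripts, and the level of the mature miRNA was not measured. Mir22 had 3.35 and 0.806 CPM in axonal shPum2, 2.48 and 3.92 in axonal shControl, 10.9 and 16.3 in somatic shPum2 and 12.9 and 14.8 CPM in somatic shControl libraries, so that all 4 somatic values were above all axonal ones, but the difference was not called with either hairpin (adjusted p = 0.375 and 0.704). Mir770, which lies downstream of the Meg3 start on the same strand, had 9.27 and 9.84 CPM in somatic shPum2 and 10.2 and 12.8 in somatic shControl libraries, with 0 to 2 counts in each axonal library. Mir3074 had 0.172 and 0 CPM in axonal shPum2 and 0.770 and 0 in axonal shControl, against 4.47 and 5.11 CPM in somatic shPum2 and 4.84 and 4.31 in somatic shControl libraries. Its neighbour Mir23b was at 2.21 and 2.17 CPM in somatic shPum2 and 2.27 and 2.29 CPM in somatic shControl libraries, and Mir27b at 2.49 and 2.28 CPM in somatic shPum2 and 1.73 and 2.11 CPM in somatic shControl libraries. The 4 somatic values of each of the 3 lay within 1 CPM of each other, while in axonal libraries each was at 0 in 2 of 4.

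Both precursors of miR-138-5p were found in somatic libraries. Mir138-2 had 3.39 and 2.05 CPM in somatic shPum2 and 3.71 and 3.58 in somatic shControl libraries, and Mir138-1 0.753 and 1.08 CPM in somatic shPum2 and 0.897 and 0.690 in somatic shControl libraries. In axonal libraries Mir138-1 was listed at 2.99 and 0 CPM with shControl and at 0 in both shPum2 libraries. Mir207 had 0.172 and 0 CPM in axonal shPum2, 0.257 and 0 in axonal shControl, 1.79 and 1.82 in somatic shPum2 and 2.93 and 1.51 CPM in somatic shControl libraries. Mir760 and Mir1896 were between 0.949 and 1.79 CPM and between 1.08 and 1.43 CPM in the 4 somatic libraries, and each was above 0 in a single axonal library. Mir3072, Mir331, Mir410, Mir1188 and Mir1249 were at 0 in all 4 axonal libraries. Against a floor of 3 counts over the 2 axonal libraries of a hairpin, Mir3072 was at least 23.6-fold lower in axonal than in somatic libraries with shPum2 and at least 20-fold lower with shControl. For the other 4 the bounds were 5.90-fold to 8.85-fold, limited by depth. The 15 precursors admitted by the somatic libraries alone summed to 2 to 78 counts per axonal library and 605 to 858 counts per somatic library. Such intervals and floors cover counting error only.

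Among the 30 non-coding transcripts of protein-coding genes, 4 held more than 50% of their gene's counts in every somatic library, among them those of Atp2a2, Ppp2r2b and Ngrn. Another 15 held less than 10% in every somatic library, so their counts rest on how kallisto divided reads between transcripts that share exons. The Atp2a2 record NR_027839, of the gene of the calcium pump of the endoplasmic reticulum, had 23.4 and 1.94 CPM in axonal shPum2, 15.1 and 0.0545 in axonal shControl, 299 and 339.8 in somatic shPum2 and 314 and 295 CPM in somatic shControl libraries. It made up 66.7% to 79.8% of the gene's counts in somatic libraries and 2.95% to 58.0% in axonal ones. The Ngrn record NR_028055, of a mitochondrial ribosome factor, was the only one of these 4 admitted by both compartments, at 28.9 and 73.2 CPM in axonal shPum2, 17.0 and 2.18 in axonal shControl, 71.2 and 88.9 in somatic shPum2 and 82.4 and 96.0 CPM in somatic shControl libraries. Its groups overlapped between compartments.

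The Dnlz record NR_024073 and the Alg3 record NR_024535 were called higher in axonal libraries with shControl (adjusted p = 0.0378 and 0.0400) and not with shPum2 (adjusted p = 0.0562 and 0.0767). Dnlz encodes a mitochondrial chaperone partner and Alg3 a mannosyltransferase of protein glycosylation. Dnlz had 31.7 and 41.8 CPM in axonal shPum2, 30.3 and 65.8 in axonal shControl, 18.9 and 21.3 in somatic shPum2 and 22.4 and 19.3 CPM in somatic shControl libraries, so that it was above the somatic range in all 4 axonal libraries. P2rx3, the gene of an ATP-gated channel of pain-sensing neurons, had a non-coding record at 8.84 and 13.2 CPM in somatic shPum2 and 7.53 and 7.90 in somatic shControl libraries, which is 2.68% to 4.09% of the gene's counts there. The Rps9 record NR_132729 and the record NR_132728, which has no symbol, had the same count in all 8 libraries, so they carry a single measurement.

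Of the 5 transcribed pseudogenes tested between compartments, 2 were called higher with both hairpins. Among the 4630 transcripts given above, 21.2% were called higher with shPum2 and 23.5% with shControl. Ybx1-ps20 had 2688 and 1766 CPM in axonal shPum2, 3302 and 1609 in axonal shControl, 117 and 54.3 in somatic shPum2 and 114 and 43.7 CPM in somatic shControl libraries, a log2 change of 6.18 ± 0.74 with shPum2 (SE; adjusted p = 0.00725) and 6.54 ± 0.75 with shControl (adjusted p = 0.00614). Its parent gene Ybx1, which encodes an RNA-binding protein and shares sequence with it, moved the same way, at 12669 and 13505 CPM in axonal shPum2, 15319 and 11844 in axonal shControl, 779 and 831 in somatic shPum2 and 733 and 834 CPM in somatic shControl libraries. How reads were divided between the 2 was not tested, and the pseudogene's level is uncertain. Aoc2-ps1 had 6.62 and 14.2 CPM in axonal shPum2, 24.2 and 19.8 in axonal shControl, 2.45 and 1.87 in somatic shPum2 and 1.88 and 2.14 CPM in somatic shControl libraries. Prrc2c, a long record of 10464 bases that GRCr8 lists as a transcribed pseudogene, had 112 and 69.3 CPM in axonal shPum2, 78.0 and 78.2 in axonal shControl, 342 and 269 in somatic shPum2 and 311 and 284 CPM in somatic shControl libraries. By CPM this was the opposite order to Ybx1-ps20. After TMM scaling the log2 change of Prrc2c was -0.30 ± 0.36 with shPum2 (adjusted p = 0.617) and -0.38 ± 0.36 with shControl (adjusted p = 0.470), not called. Selenok-ps2 and Dzip1-ps1 were among the 7 admitted by the axonal libraries alone, with Rn5s, Rpph1, CB741658, the Patz1 record NR_102353 and NR_002597. Selenok-ps2 had 3.75 and 2.93 CPM in axonal shPum2 and 2.13 and 15.3 in axonal shControl, against 0.567 and 0.351 CPM in somatic shPum2 and 0.419 and 0.346 in somatic shControl libraries.

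NR_038113, a record of 359 bases with no symbol, had 1867 and 2766 CPM in axonal shPum2, 2635 and 2361 in axonal shControl, 268 and 255 in somatic shPum2 and 254 and 273 CPM in somatic shControl libraries. Its log2 change was 4.73 ± 0.47 with shPum2 (adjusted p = 0.00603) and 4.79 ± 0.47 with shControl (adjusted p = 0.00522), and its somatic libraries differed by less than 20 CPM.

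Length moved with the difference between compartments. Of the 48, 8 of 9 up to 500 bases, 14 of 16 from 500 to 1500 bases and 8 of 23 longer ones had a higher mean CPM in axonal libraries. Among the 4630 transcripts of any kind the shares were 94.2%, 63.1% and 20.7%. Across the 48 transcripts, which share libraries and are not independent replicates, the log2 ratio of axonal to somatic mean CPM had a Pearson r of -0.46 and a Spearman rho of -0.47 with log2 length, against -0.56 and -0.58 across the 4630. Without the rRNA records, the other 44 gave -0.57 and -0.60, close to the values across all transcripts. The long rRNA records Rn28s and Rn45s and the lncRNA Lnc012 were higher on average in axonal libraries although they are long, and Mir22, of 95 bases, was lower. The 17 called higher with both hairpins had a median length of 673 bases, against 2211 bases for the rest of the 48. The kit also differs between compartments, and the part of length in any single difference was not tested.

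**Figure D4:**
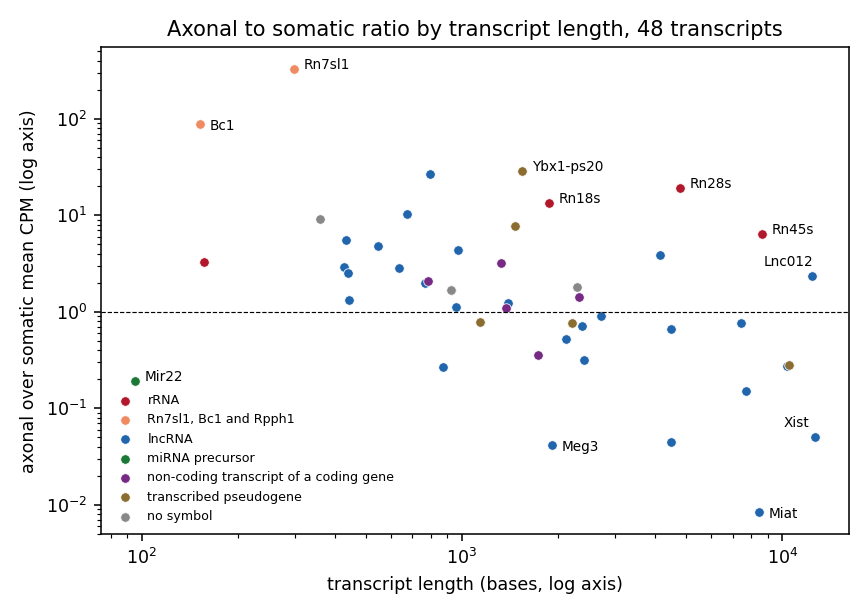
Each point is 1 of the 48 transcripts with at least 10 counts in all 8 libraries, by its length in bases (horizontal, log axis) and the ratio of its axonal to its somatic mean CPM (vertical, log axis); the dashed line marks equal level. Of the 9 up to 500 bases, 8 lie above the line, against 8 of the 23 longer than 1500 bases.

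At the edge of the rule, Mir1249 and Mir3064 met it with 10 counts in their lowest somatic library and LOC100911827 with 11, while Mir186, with 9, did not. In axonal libraries Rps2-ps44 met it with just over 10 counts in its lowest library and Oip5-as1 and Pincl with 11. Lnc-hc, NR_126573 and Zeb2-as1, with 9.17, 6.74 and 6.27 counts in their lowest axonal library, were admitted by the somatic libraries alone. For Oip5-as1 the lowest value stood far from the rest: it had 930 and 364 counts in axonal shPum2 and 666 and 11 in axonal shControl libraries.

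Between hairpins, the somatic libraries gave no call among the 134 of the 138 transcripts that passed the expression filter, by edgeR or by DESeq2. Of all 12947 transcripts tested, 0.00772% were called, which is the Pum2 transcript alone. At an unadjusted p under 0.05 there were 2 of the 134, where 0.881% of all transcripts tested passed. The median log2 change was -0.02 over the 134 and 0.009 over all transcripts tested. The Szrd1 record NR_102345 had 10.7 and 6.36 CPM in somatic shPum2, against 15.2 and 15.1 CPM in somatic shControl libraries, a log2 change of -0.84 ± 0.27 (SE; adjusted p = 0.9996). Summed over the transcripts of the gene the change was 0.01. The Crebzf record NR_073441, of a transcription factor gene, had 23.6 and 19.5 CPM in somatic shPum2, against 26.9 and 29.5 CPM in somatic shControl libraries (-0.40 ± 0.14, adjusted p = 0.9996). Groups did not overlap for either, and neither passed the adjusted threshold. Next by p were NR_027367, which has no symbol, Oip5-as1, Miat and the Patz1 record NR_102354. NR_027367 had 7.02 and 5.26 CPM in somatic shPum2, against 9.10 and 8.24 CPM in somatic shControl libraries (-0.51 ± 0.23, adjusted p = 0.9996). The Patz1 record, of a gene for a zinc finger transcription factor, was the one of these 6 with a positive change (1.38 ± 0.66, adjusted p = 0.9996). It was at 3.59 and 1.16 CPM in somatic shPum2, against 0.704 and 1.03 CPM in somatic shControl libraries, with shPum2 replicate 1 far above the other 3 libraries. With the gene's transcripts summed, the change was 0.004. The other Patz1 record admitted, NR_102353, was at 0 and 1.33 CPM in somatic shPum2, against 3.18 and 1.25 CPM in somatic shControl libraries. How reads were divided between the gene's records was not tested.

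Meg3, Miat, Oip5-as1, Xist and Tug1, the lncRNAs with the highest mean CPM in somatic libraries, stayed close between hairpins. H19, next by mean CPM, was at 247 and 39.7 CPM in somatic shPum2 and 52.8 and 70.1 CPM in somatic shControl libraries. Its groups overlapped and it was not called. The log2 change of Meg3 was -0.09 ± 0.12 (SE), that of Miat -0.23 ± 0.11, that of Oip5-as1 -0.26 ± 0.12, that of Xist 0.08 ± 0.20 and that of Tug1 -0.04 ± 0.07, none called. Miat and Oip5-as1 had both shPum2 libraries below both shControl libraries. Of the 131 transcripts admitted by the somatic libraries, 11 had both shPum2 values above both shControl values and 23 below, against 11.4% and 13.4% of all transcripts that reached the same minimum. The miRNA precursors had 5 positive and 11 negative log2 changes out of 16, with a median of -0.05, and none was called. Rn28s and Rn18s had changes of 0.32 ± 0.26 and 0.40 ± 0.24, and Bc1 of -0.24 ± 0.26.

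In axonal libraries, 84 of the 138 passed the expression filter and none was called by edgeR between hairpins, as none (0%) of all 8777 transcripts tested was. At an unadjusted p under 0.05 there were 3 of the 84, against 3.04% of all transcripts tested. All 3 were lower with shPum2. The Taf13 record NR_130639, of a gene for a general transcription factor subunit, was at 0 in both axonal shPum2 libraries, against 4.15 and 7.73 CPM in axonal shControl libraries, which is at least 56.2-fold lower with shPum2 when 3 counts over the group are taken as the floor (adjusted p = 0.9999, edgeR). LOC103692984 was at 0 in both axonal shPum2 libraries, against 1.54 and 11.1 CPM in axonal shControl libraries, at least 61.7-fold lower (adjusted p = 0.9999). Zbtb11os1 had 1 count in each axonal shPum2 library, against 5.89 and 8.87 CPM in axonal shControl libraries, a ratio of shControl to shPum2 of 104 with an exact counting interval of 28.4 to 866 (adjusted p = 0.9999). In the somatic compartment the groups of Taf13 overlapped, at 2.33 and 1.67 CPM with shPum2 and 0.999 and 2.57 CPM with shControl. LOC103692984 was there at 0.612 and 0.697 CPM with shPum2 and 0.658 and 0.733 CPM with shControl, and Zbtb11os1 at 9.64 and 9.09 CPM with shPum2 and 9.15 and 9.37 CPM with shControl, again with overlapping groups. DESeq2 called 2 in axonal libraries, Taf13 (adjusted p = 0.0466) and LOC103692984 (adjusted p = 0.0472). That is 2.67% of the 75 among the 138 that have an adjusted p by DESeq2, below the 3.86% of all transcripts with one that it called. With the counts of the Taf13 gene summed over its transcripts, the log2 change was 0.96, the opposite direction. Next by p were the Crebzf record NR_073440, the Tyw5 record NR_033170 and Bc1, none with an unadjusted p under 0.05. The Crebzf record had a positive change, at 8.99 and 9.51 CPM in axonal shPum2, against 0 and 0.214 CPM in axonal shControl libraries (adjusted p = 0.9999, edgeR). In somatic libraries it was at 3.82 and 5.15 CPM with shPum2 and 6.51 and 0.667 CPM with shControl, with overlapping groups. The Tyw5 record, of a gene for a tRNA-modifying enzyme, was at 0.172 and 0.124 CPM in axonal shPum2, from 2 counts in each, against 2.91 and 2.88 CPM in axonal shControl libraries (adjusted p = 0.9999). By its name Zbtb11os1 is an opposite-strand transcript of Zbtb11, and without a stated strand setting its reads cannot be told from those of its partner.

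All 5 rRNA records and all 3 small RNAs had a negative log2 change with shPum2 in axonal libraries, and none was called. It was -1.09 ± 0.63 for Bc1 (SE; adjusted p = 0.9999), -0.62 ± 0.60 for Rn7sl1, -1.89 ± 2.34 for Rpph1, -0.99 ± 0.79 for Rn28s, -0.98 ± 0.70 for Rn18s, -0.39 ± 0.54 for Rn45s, -2.29 ± 1.6 for Rn5-8s and -0.32 ± 1.87 for Rn5s. For Bc1, Rn7sl1, Rpph1, Rn18s and Rn5-8s both shPum2 libraries were below both shControl libraries. For Rn28s, Rn45s and Rn5s the groups overlapped, and Rn28s and Rn18s were highest in axonal shControl replicate 2. The median change of the 84 was -0.34, against -0.05 over all transcripts tested. Of the 55 transcripts admitted by the axonal libraries, 4 had both shPum2 values above both shControl values and 15 below, where 15.7% and 12.9% of all transcripts of the same minimum did. These counts are over transcripts of the same 4 libraries, which are not independent.

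**Figure D5:**
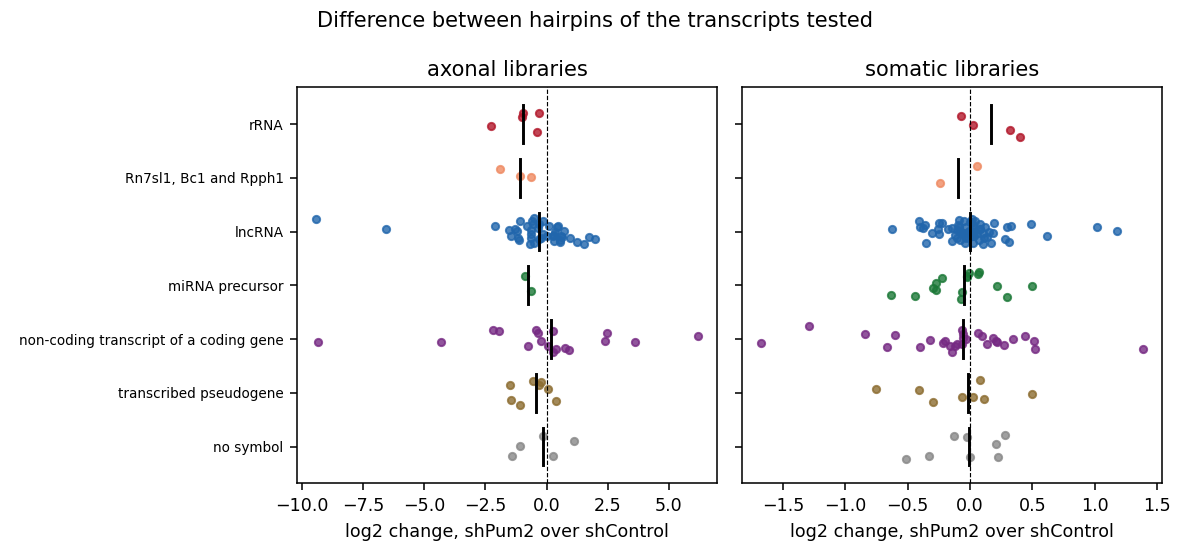
Points give the log2 change of shPum2 over shControl for each transcript that passed the expression filter, 84 in axonal (left) and 134 in somatic libraries (right), by class; black bars are class medians and the dashed line is 0, and the horizontal axes differ in range. Somatic changes lie near 0, with a median of -0.02, while axonal changes spread further, with a median of -0.34 and all 5 rRNA records and all 3 small RNAs left of 0, none of them called.

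The difference between the axonal and the somatic hairpin effect was called for none of the 138, as for none (0%) of all 12959 transcripts tested by edgeR, and 8 had an unadjusted p under 0.05, against 7.78% of all transcripts tested. The smallest adjusted p, 0.308, was shared by Taf13 and Zbtb11os1. LOC103692984, LOC100912071, the Tyw5 record and Mir27b had the next smallest p, with adjusted p between 0.338 and 0.568. LOC100912071 was the one of these 6 with a more positive axonal effect, at 0.433 and 0.610 CPM in axonal shPum2 and listed at 0 in both axonal shControl libraries, beside 12.4 and 9.13 CPM in somatic shPum2 and 11.1 and 10.7 CPM in somatic shControl libraries. Mir27b was at 0 in both axonal shPum2 libraries and at 0.685 and 0.0739 CPM, from 8 and 1 counts, in axonal shControl libraries. DESeq2 called 4, the Taf13 and Tyw5 records, Zbtb11os1 and LOC103692984, all with a more negative axonal effect. That is 3.57% of the 112 among the 138 that have an adjusted p by DESeq2, below the 5.88% of all transcripts with one. Leaving out axonal shControl replicate 1 gave 5 calls by edgeR, among them Oip5-as1, Ppp2r2b and P2rx3, which then rest on a single axonal shControl library. These 5 are 3.62% of the 138, below the 5.67% of all transcripts called at that setting. In the authors' deposited tables, which give p-values per gene, 76 of the 138 were found by symbol, each of a gene with a single transcript in the files. Other transcripts of such genes, among them Meg3, Xist, Oip5-as1, Ybx1-ps20 and Rpph1, were not among the 76, so they were not compared. The authors' deposited table for the somatic compartment called none of the 76 at an adjusted p under 0.05, with 1, Miat, at an unadjusted p under 0.05. The authors' deposited table for the axonal compartment called 2, LOC103692984 (adjusted p = 0.0364) and Zbtb11os1 (adjusted p = 0.0461), both of which are among the 3 with the smallest p above.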

How the data were processed

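Each deposited library file gives, per the file headers, an estimated count, TPM, length and effective length for each RefSeq transcript; the submitters' processing notes name kallisto, DESeq2 and Rnor_6.0, without tool versions. The authors' 2 deposited comparison tables give for each gene the normalised signal (a mean over libraries), the log2 change, a test score and p-values. Names came from RefSeq tables of assembly GRCr8 (94.7% of transcripts matched).

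Estimated counts were rounded and tested per transcript with edgeR 4.0.16 in R 4.3.3 (quasi-likelihood test, TMM scaling, its expression filter, Benjamini-Hochberg adjustment over all transcripts tested, threshold 0.05). Hairpins were compared within the 4 libraries of a compartment, and compartments and the interaction in a fit of all 8, which uses a single spread per transcript for both kits. DESeq2 1.42.0, other scalings, no filter, gene sums, the replicate number and each library left out were alternatives. Tested on simulated counts with known changes, the fits of all 8 libraries missed most changes even at the largest size simulated. The axonal hairpin fit found most of the largest changes and missed most of the smaller ones, which were also of many-fold size. The somatic fit made more false calls than the threshold allows. Named were the 12 transcripts highest in either compartment, the 6 with the smallest p per comparison, members of role lists and those nearest the rule; others named, such as the records with the largest isoform share and Ybx1, were chosen after their values were seen. The members and lists were chosen with earlier results of these data known.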

Additional observations from a re-analysis of the deposited data

How the results depend on the processing

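Of the members tested, edgeR called 0 in the axonal hairpin comparison and DESeq2 2; in the interaction edgeR called 0, DESeq2 4 and leaving out a library 0 to 5. These shares of members, at most 3.62%, were below those of all transcripts at the same settings (3.86%, 5.88% and 5.67%). With shPum2, 19 of 48 were called between compartments, against 12 with library totals, 31 with DESeq2, 12 with the replicate number as a block and 0 to 27 when a library was left out. With shControl, 25 were called, against 14 with library totals, 12 with the block and 0 to 28 when a library was left out. Of the 4630 transcripts with the same minimum, 24.4% were called with shPum2, against 24.1% with library totals, 39.2% with DESeq2, 14.2% with the block and 0% to 41.2% when a library was left out; with shControl 28.9%, against 30.6% with library totals, 16% with the block and 0% to 40.7%. DESeq2 called 29 of the 48 and 45% of the 4630 with shControl. The cause of these shifts was not tested. A fit without 1 library has fewer degrees of freedom, and the lone library left in a group is assumed to vary like the others. Same-numbered libraries deviated together in the somatic groups (r = 0.684) and little elsewhere (0.02 to 0.12). The main fits did not take the numbers as pairs, so the main somatic hairpin test leaves this shared deviation out. With the block, 650 of 12947 transcripts and 4 of 134 members had an unadjusted p under 0.05 between somatic hairpins by edgeR, against 114 and 2 without it. The block gave 0 calls among members between hairpins and in the interaction.

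The somatic Pum2 change was -2.14 and not called in a fit of all 8 libraries, and between -2.13 and -2.12 when a library was left out. Summed TPM gave a share of 1.38% in somatic shPum2 and 1.36% in somatic shControl libraries, against 0.769% and 0.731% of counts. Gene sums turned the direction of the Szrd1 record in soma (0.014) and of the Taf13 record in axon (0.96) and in the interaction (1.02). The H19 change between compartments with shPum2 turned to -1.29 with library totals and lay between -0.49 and 2.03 when a library was left out, negative without replicate 2 of axonal (-0.32) or somatic shPum2. No call was turned in direction. At 10 counts in the shallowest axonal library a member stands at 0.859 CPM. The common biological coefficient of variation was 127% among axonal libraries and 25.4% among somatic ones, so axonal changes of many-fold size could go uncalled, and none called does not show that levels were alike.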
